A study of Mus musculus with 36 samples.

Results

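MHC class II molecules carry peptides from extracellular and vesicular proteins to the cell surface, where CD4+ T cells read them. The 10 genes described here cover that pathway in mouse tumours. They are the chain genes H2-Aa, H2-Ab1, H2-Eb1 and H2-Ea-ps, the invariant chain gene Cd74, the transactivator gene Ciita, the peptide editor genes H2-DMa, H2-DMb1 and H2-DMb2, and H2-Oa, which encodes a chain of the DM inhibitor. They were taken as listed, by symbol, and all 10 were found among the 37417 genes of the count table.

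RNA came from 36 subcutaneous tumours of wild-type mice, labelled 12 weeks of age, with 1 library per tumour. The labels name 3 transplanted cell lines, MC38 (colon) and PancO2 (pancreas) in C57BL/6J mice and CT26 (colon) in BALB/c mice. Within each line, 4 libraries are labelled IgG from rat serum, 4 anti-CTLA4 and 4 anti-PD-1, all given intraperitoneally at 10 mg/kg, with tumours taken at end stage. The cancer cells come from a cultured line, while immune and stromal cells come from the host.

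The libraries fall into 3 expression classes that cross the labels, so names such as MC38 IgG 3 are used only as the labels of libraries. Of the 12 libraries that express H2-Ea-ps, 4 are labelled MC38 and 4 PancO2, lines in C57BL/6J mice, and 4 CT26, so the labels and the measured expression disagree and the labels may not hold for every library. A library was called H2-Ea-expressing where H2-Ea-ps was above 10 CPM (a gene's counts scaled to a common library total), Cp-high where Cp, the gene of the plasma copper carrier ceruloplasmin, was above 1000 CPM, and neither otherwise. Each class held 12 libraries. For H2-Ea-ps, the lowest library inside was at 32.8 CPM and the highest outside at 0.0845 CPM. For Cp, these were 1389 CPM and 611 CPM. Of the 9 labelled groups, 8 had libraries in all 3 classes, and the other one, PancO2 anti-PD-1, had none in the class with neither. Since the classes were set from measured values, levels are compared between them as a description, with no test. Tests were made within a class, from library to library.

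Library totals ran from 7883106 to 41751023 counts. The shallowest, labelled PancO2 anti-PD-1 71 and called library 71 here, belonged to the H2-Ea-expressing class. It had 15.7% of its counts in mitochondrial genes, against at most 4.27% in the other libraries of that class, and B cell markers summing to 37.2 CPM, against at most 3.81 CPM. Results that rest on it are given with and without it. A second library stood apart. The one labelled PancO2 IgG 48, in the Cp-high class, had skin markers (Krt5, Krt14, Krt10 and Lor) summing to 407 CPM, against at most 40.03 CPM in the other 11.

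Ciita is a co-activator that does not bind DNA itself. It is recruited to class II promoters by a protein complex on the X box, bound by RFX, and the Y box, bound by NF-Y, and interferon-gamma induces it in many cell types. The alpha and beta chains pair in the endoplasmic reticulum with the invariant chain, which blocks the groove. H2-DM later exchanges the remnant of the invariant chain for antigenic peptide, and H2-DO restrains H2-DM. C57BL/6 mice carry a deletion over the start of the H2-Ea gene, so they make no E alpha chain and no surface I-E, while BALB/c mice do. In bulk RNA, fewer cells of a type and less RNA per cell cannot be told apart.

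RefSeq start-site windows of GRCm38.p6 were at hand for 6 of the 10 genes, and those of H2-Ab1, H2-Ea-ps, Cd74 and Ciita were not used here. The stretches below, 140 bases each from 160 to 21 bases before the start, are shown because the X and Y boxes are where Ciita is recruited. They are those of H2-Aa, H2-Eb1 and H2-DMb1, which followed H2-Ea-ps closely below, and of H2-DMb2 and H2-Oa, which did not by r with all libraries. Capitals mark the Y box core, TGATTGG, and a GNAAC match 15 to 40 bases before it, the position of the X box. The GNAAC letters were chosen after the windows were seen.
H2-Aa (chr17:34287844-34287983, minus strand): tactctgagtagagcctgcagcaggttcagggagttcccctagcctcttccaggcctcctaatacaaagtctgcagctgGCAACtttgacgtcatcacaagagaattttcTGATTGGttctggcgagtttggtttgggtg
H2-Eb1 (chr17:34305707-34305846, plus strand): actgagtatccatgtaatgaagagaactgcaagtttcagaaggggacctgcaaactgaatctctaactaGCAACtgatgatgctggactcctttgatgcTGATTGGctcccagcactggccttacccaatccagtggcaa
H2-DMb1 (chr17:34153031-34153170, plus strand): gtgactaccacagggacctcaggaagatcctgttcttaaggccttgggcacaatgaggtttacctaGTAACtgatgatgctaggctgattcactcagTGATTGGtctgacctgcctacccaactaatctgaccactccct
H2-DMb2 (chr17:34145089-34145228, plus strand): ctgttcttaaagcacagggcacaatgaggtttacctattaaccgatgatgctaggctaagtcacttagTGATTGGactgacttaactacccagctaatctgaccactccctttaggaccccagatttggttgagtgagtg
H2-Oa (chr17:34092219-34092358, plus strand): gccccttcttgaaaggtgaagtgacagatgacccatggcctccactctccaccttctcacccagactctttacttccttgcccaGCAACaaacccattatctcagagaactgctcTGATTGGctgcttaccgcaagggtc

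In H2-Aa, H2-DMb1 and H2-Oa, 26 bases lay between the marked matches, and in H2-Eb1 25 bases. H2-DMb2 held the Y box core but no GNAAC match at that distance. It reads ttaac where H2-DMb1 reads GTAAC, so it misses the chosen letters only by the first. The H2-DMa windows at hand, 1 at each of 2 start sites (chr17:34122672-34122811 and chr17:34125358-34125497), held no Y box core. The gene is annotated from 34119541 to 34139101, and other start sites in it were not searched. Over all 32851 start-site windows of 300 bases, 4.01% held TGATTGG on the gene's strand and 7.82% on either strand. The pair at this spacing was in 0.332% on the gene's strand and in 0.715% on either strand. GNAAC alone is common, at 61.6% of windows on the gene's strand and 84.8% on either. A match is a description of the letters and not a bound site.

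The classical chain genes sit side by side on chromosome 17 (GRCm38, GENCODE vM21). H2-Aa (ENSMUSG00000036594; 34282744 to 34287823, minus strand) encodes the alpha chain of I-A. Its level ran from 35.4 CPM to 153 CPM in the H2-Ea-expressing class, with a median of 69.8 CPM. In the Cp-high class it ran from 386 to 1625 CPM, with a median of 1162 CPM, and in the class with neither from 16.6 to 494 CPM, with a median of 124.9 CPM. All 12 Cp-high libraries were above all 12 H2-Ea-expressing ones, while the class with neither spanned the whole range of the latter.

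H2-Ab1 (ENSMUSG00000073421; 34257689 to 34269419, plus strand) encodes the beta chain that pairs with it. It ran from 24.04 to 96.9 CPM, median 55.2 CPM, in the H2-Ea-expressing class. It ran from 211 to 1036 CPM, median 719.95 CPM, in the Cp-high class, and from 12.7 to 367 CPM, median 94.7 CPM, in the class with neither. H2-Eb1 (ENSMUSG00000060586; 34305867 to 34316674, plus strand), the beta chain of I-E, lay at 21.6 to 112 CPM, median 50.8 CPM, in the first class. Its Cp-high range was 279 to 1361 CPM, median 923 CPM, and its range in the third class 10.7 to 393 CPM, median 85.4 CPM. The 3 chain genes kept the same order of classes, with the Cp-high medians 13.03 to 18.2 times the H2-Ea-expressing ones.

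H2-Ea-ps (ENSMUSG00000036322; 34341959 to 34344645, minus strand), a polymorphic pseudogene in the annotation, encodes the alpha chain of I-E where the allele is intact. It defined the first class, so its presence there is not a finding. Within that class it ran from 32.8 CPM in the library labelled MC38 anti-PD-1 16 to 134 CPM in that labelled PancO2 IgG 54, with a median of 67.2 CPM. It was at 0 in 6 of 12 Cp-high libraries and in 11 of 12 libraries with neither. The libraries without it still carried H2-Eb1, at up to 1361 CPM.

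**Figure D1:**
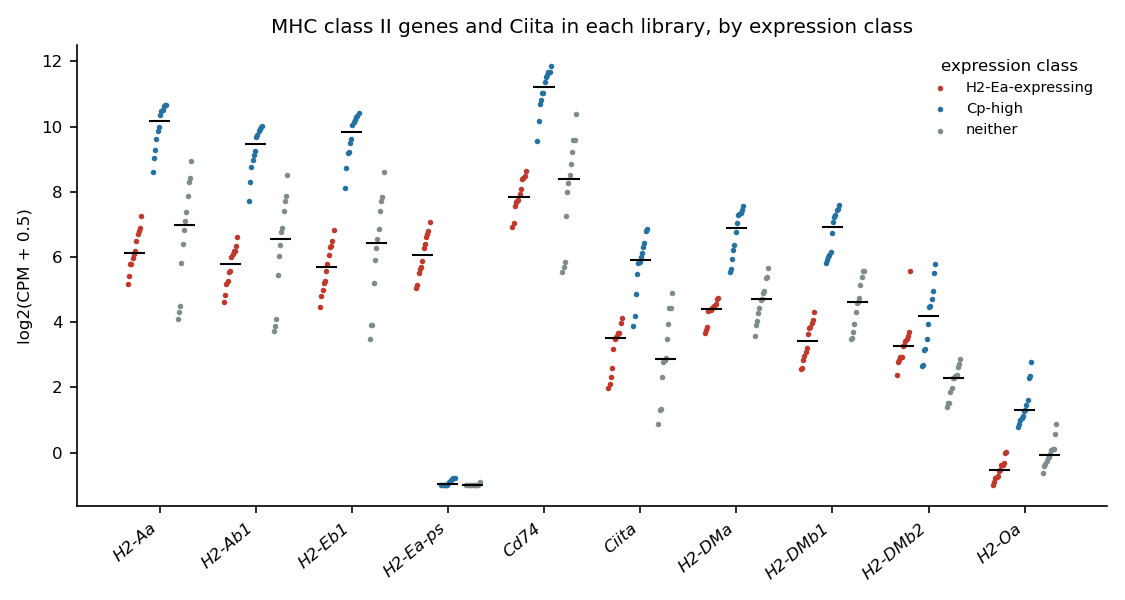
Each point is 1 library, with log2(CPM + 0.5) on the vertical axis, the 10 genes on the horizontal axis, colour for expression class (n = 12 each) and a bar at the class median. The Cp-high points of H2-Aa, H2-Ab1, H2-Eb1, Cd74, H2-DMa, H2-DMb1 and H2-Oa lie above all H2-Ea-expressing points, and H2-Ea-ps is near the floor outside the class it defines.

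Cd74 (ENSMUSG00000024610; chromosome 18, 60803848 to 60812652, plus strand) was the most abundant of the 10 in every class, also per length. It ran from 119.7 to 401 CPM, median 229 CPM, in the H2-Ea-expressing class, from 754 to 3680 CPM, median 2391 CPM, in the Cp-high class, and from 46.1 to 1325 CPM, median 335 CPM, in the class with neither. Per 1000 bases of its main transcript, its median was 163, 1695 and 238 CPM in these classes.

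Ciita (ENSMUSG00000022504; chromosome 16, 10480059 to 10528418, plus strand) was far lower. It ran from 3.43 to 16.8 CPM, median 10.96 CPM, in the H2-Ea-expressing class, from 14.2 to 114.5 CPM, median 60.1 CPM, in the Cp-high class and from 1.34 to 29.2 CPM, median 6.74 CPM, in the class with neither. Unlike H2-Aa, H2-Ab1 and H2-Eb1, it had its lowest median in the class with neither. The H2-Ea-expressing and Cp-high ranges overlapped for Ciita, through the library labelled CT26 IgG 28, which had the lowest Cp-high value of 8 of the 10 genes.

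The editors were at intermediate levels. H2-DMa (ENSMUSG00000037649; chromosome 17, 34119541 to 34139101, plus strand) ran from 12.3 to 26.2 CPM in the H2-Ea-expressing class, from 46.3 to 187 CPM in the Cp-high class and from 11.5 to 50.6 CPM in the class with neither. H2-DMb1 (ENSMUSG00000079547; chromosome 17, 34153072 to 34160230, plus strand) ran from 5.45 to 19.5 CPM, from 55.96 to 194 CPM and from 10.6 to 47.05 CPM in the same order. It was the only one of the 10 for which all Cp-high libraries were above all libraries with neither.

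H2-Oa (ENSMUSG00000024334; chromosome 17, 34092340 to 34095234, plus strand) had the lowest medians of the 10, apart from H2-Ea-ps where it is not expressed, and outside the Cp-high class it was near the limit of detection. It ran from 0 to 0.504 CPM, median 0.184 CPM, in the H2-Ea-expressing class, from 1.23 to 6.38 CPM, median 1.95 CPM, in the Cp-high class and from 0.152 to 1.33 CPM, median 0.439 CPM, in the class with neither. The 0 was in library 71, where a count of 0 allows up to 0.381 CPM, counting error only. Exons of BC051537 on the opposite strand cover 22.8% of the exon bases of H2-Oa, and exons of Brd2 10.4% of those of H2-DMa, so without strand some of these reads may belong to either gene.

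Between classes, 7 of the 10 genes had non-overlapping ranges with Cp-high above H2-Ea-expressing, against 19.5% of the 14125 genes with a mean of at least 1 CPM. Only H2-Ea-ps, by construction, went the other way, against 12.2%, and genes separated in either direction made up 31.7%. Between H2-Ea-expressing libraries and those with neither, H2-Ea-ps was higher by construction, against 9.13% of all genes, and none of the other 9 genes separated, against 26.9% in either direction. Between Cp-high libraries and those with neither, 1 of 10 separated with Cp-high higher, against 14.7%, and none with neither higher, against 16% of all genes. Class II chains are among the most polymorphic genes of the mouse, and reads were mapped to the C57BL/6J genome. A loss of reads from other alleles and a lower level cannot be told apart between classes. Summed marker lists also differed between the classes. The T cell list (5 genes) was at 12.8 to 33.3 CPM in the H2-Ea-expressing class, at 34.5 to 108 CPM in the Cp-high class and at 4.59 to 67.1 CPM in the class with neither. The dendritic cell list (7 genes) was at 14.5 to 23.998 CPM in the first outside library 71, where it was at 81.8 CPM, at 46.95 to 213 CPM in the Cp-high class and at 46.4 to 77.5 CPM in the class with neither. Its genes disagreed between the last classes. Zbtb46 alone had a higher median in the class with neither, 31.1 CPM against 4.93 CPM in the Cp-high class. All the others had lower ones, such as Flt3 (2.23 against 9.48 CPM), Xcr1 (2.02 against 16.4 CPM) and Clec9a (9.75 against 10.4 CPM). The epithelial list (5 genes) was at 8.80 to 43.7 CPM in the H2-Ea-expressing class. It was at 577 to 1186 CPM in the Cp-high class and at 64.4 to 430.4 CPM in the class with neither. In the class with neither this was mostly Krt8, at 56.8 to 420 CPM, beside Cdh1 at 2.32 to 12.4 CPM. Krt18 was at 0.195 to 1.45 CPM there, below its 6.84 to 40.6 CPM in the H2-Ea-expressing class. Krt19 and Epcam were at most 0.93 and 0.475 CPM there. The summed macrophage list (6 genes) was at 451 to 886 CPM in the H2-Ea-expressing class, at 845 to 1454 CPM in the Cp-high class and at 1081 to 1622 CPM in the class with neither, and the part of these lists in the class levels was not tested.

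Within a class, these genes varied more than most. The median SD of log2(CPM + 0.5) over the members at a mean of at least 5 CPM was 0.63 in the H2-Ea-expressing class (9 members), 0.73 in the Cp-high class (8 members) and 1.63 in the class with neither (7 members). Over all genes at that level it was 0.24, 0.17 and 0.16. H2-Aa in the class with neither ranged from 16.6 CPM in the library labelled CT26 anti-PD-1 41 to 494 CPM in the library labelled MC38 IgG 2.

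Whether H2-Ea-ps rises and falls with the other class II genes was asked over the 12 libraries that express it. It did so for 7 of the 9 other genes. With its pairing partner H2-Eb1, Pearson's r was 0.98 (permutation p = 1e-05, adjusted p = 3e-05 over the 9 relations, two-sided, n = 12) and Spearman's rho 0.97 (permutation p = 1e-05, adjusted p = 4.5e-05). The p of 1e-05 is the smallest that 100000 resamples can give. The libraries labelled MC38 anti-PD-1 16 and MC38 IgG 3 were lowest for both genes, at 32.8 and 34.7 CPM of H2-Ea-ps, and that labelled PancO2 IgG 54 was highest for both. When the libraries farthest from the median of H2-Ea-ps, MC38 anti-PD-1 16 and PancO2 IgG 54, were left out, r with H2-Eb1 was 0.98.

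The relation was as close for Cd74, the chain that occupies the groove before peptide loading (r = 0.98, rho 0.96), and for H2-Aa (r = 0.97, rho 0.94). Adjusted permutation p-values were 3e-05 for both r and 4.5e-05 for both rho, n = 12. Without the same libraries, r was 0.97 and 0.96. H2-Ab1 followed less closely, at r = 0.88 (permutation p = 0.00031, adjusted p = 0.000399) and rho 0.85 (permutation p = 0.00087, adjusted p = 0.0013), with r of 0.80 without the farthest pair. This value was lowered by 1 library. Without library 71, r with H2-Ab1 was 0.98.

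The DM genes and Ciita were also related to H2-Ea-ps. H2-DMb1 had r = 0.92 and rho 0.89 (permutation p = 0.00016 and 0.00024, adjusted p = 0.000288 and 0.000432). H2-DMa had r = 0.85 and rho 0.94 (permutation p = 0.00016 and 2e-05, adjusted p = 0.000288 and 4.5e-05). Ciita had r = 0.87 and rho 0.74 (permutation p = 0.00028 and 0.0082, adjusted p = 0.000399 and 0.0106). Their r without the farthest pair was 0.90, 0.77 and 0.81.

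H2-DMb2 and H2-Oa were the exceptions. H2-DMb2 had r = 0.26 (permutation p = 0.465, adjusted p = 0.465), while its rho was 0.66 (permutation p = 0.0241, adjusted p = 0.0271). H2-Oa had r = 0.28 (permutation p = 0.38, adjusted p = 0.427) and rho 0.19 (permutation p = 0.558, adjusted p = 0.558), at levels of at most 0.504 CPM. Without the farthest pair, r was 0.07 for H2-DMb2 and 0.22 for H2-Oa. For H2-DMb2, 1 library decided the call. Without library 71, r rose to 0.91 (permutation, adjusted p = 0.000315, n = 11).

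**Figure D2:**
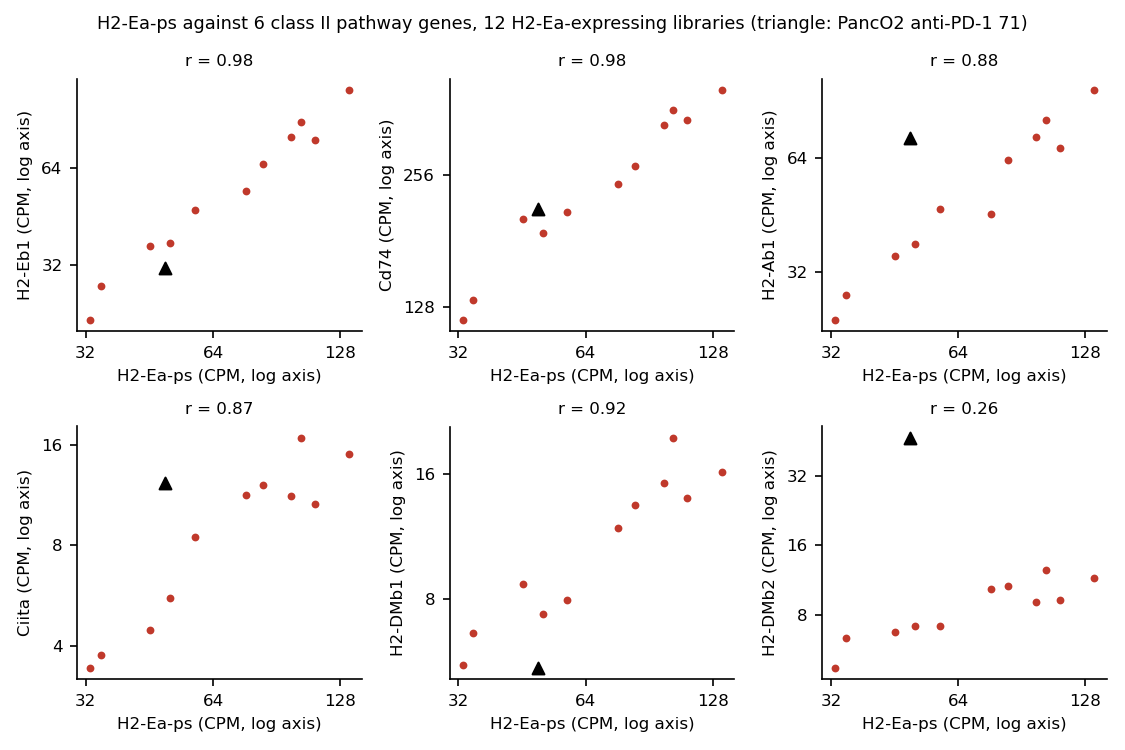
Each panel plots H2-Ea-ps in CPM on the horizontal log axis against 1 other gene in CPM on the vertical log axis over the 12 H2-Ea-expressing libraries, with Pearson's r of log2(CPM + 0.5) above it. The triangle, library 71, lies with the others for H2-Eb1 and Cd74, highest for H2-DMb2 and lowest for H2-DMb1. For H2-Ab1 and Ciita it lies above the libraries nearest to it in H2-Ea-ps, but below the highest of the class.

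Set against the whole transcriptome, H2-Eb1, Cd74 and H2-Aa were the 3 genes whose pattern was most like that of H2-Ea-ps, at ranks 1, 2 and 3 of 10866 genes with a mean of at least 5 CPM. H2-DMb1 ranked 15, H2-Ab1 23, Ciita 31 and H2-DMa 39, and H2-DMb2 ranked 1996. An r above 0.8 was found for 7 of the 8 members at that level, against 0.469% of all genes, whose median r was 0.07. Without library 71, it was found for 8 of 8 members, against 0.917% of all genes.

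Outside the class II genes, the 10 genes most like H2-Ea-ps over these 12 libraries had r between 0.93 and 0.96. They were Gbp2b, Gbp4, Gbp2 and Gbp3, which encode guanylate-binding proteins, Tgtp1, an interferon-inducible GTPase, Batf2, a transcription factor, Ccl8, a chemokine, Serpina3g, a serpin, AW112010, and the gene ENSMUSG00000054588, for which no symbol was matched. Gbp2b had the highest r, 0.96, and ran from 33.8 to 96.2 CPM. Without library 71, 3 of these 10 names stayed among the first 10. These were Gbp2b, Gbp4 and Batf2, beside Tgtp2, Irf1, Irgm1, Iigp1, Il18bp, Irgm2 and Cd274. These r are descriptions, with no test, over genes measured in the same libraries.

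H2-Ea-ps kept a near constant proportion to its partner. Per 1000 bases of main transcript (1036 bases for H2-Ea-ps and 1669 bases for H2-Eb1), H2-Ea-ps was 1.87 to 2.54 times H2-Eb1, with a median of 2.04 and a coefficient of variation of 10.0% over 12 libraries. The highest ratio was in library 71, followed by 2.44. H2-Eb1 itself was at 0.654 to 0.862 times H2-Ab1 per length in the other 11 libraries and at 0.314 in that one. In the Cp-high class H2-Eb1 was 0.864 to 0.979 times H2-Ab1, and in the class with neither 0.605 to 0.779 times. All Cp-high libraries were above the others in this ratio, but the nearest libraries, at 0.864 and 0.862, hardly differed. Loss of reads from other alleles can also shift this ratio, and those to H2-Ab1 below, between classes. The share of gene pairs that separate classes was not computed.

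H2-Aa was 1.01 to 1.69 times H2-Ab1 per length in the H2-Ea-expressing class, 1.32 to 2.09 times in the Cp-high class and 1.36 to 1.61 times in the class with neither. The lowest values of the first 2 classes were in library 71 and that labelled PancO2 IgG 48. Cd74 was 2.54 to 4.96 times H2-Ab1 in the first class, with a median of 4.004, against medians of 2.92 and 3.09 in the others.

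H2-DMb1 and H2-DMb2 encode alternative beta chains of H2-DM, and their balance set the H2-Ea-expressing class apart from the others. H2-DMb2 (ENSMUSG00000037548; chromosome 17, 34143307 to 34151555, plus strand) ran from 4.70 to 46.9 CPM, median 9.19 CPM, in the H2-Ea-expressing class, with 12.5 CPM as the second highest. It ran from 5.76 to 54.8 CPM, median 18.1 CPM, in the Cp-high class and from 2.13 to 6.77 CPM, median 4.38 CPM, in the class with neither. Per length, H2-DMb2 was 0.591 to 0.96 times H2-DMb1 in 11 H2-Ea-expressing libraries and 8.48 times in library 71. It was 0.0987 to 0.279 times H2-DMb1 in the Cp-high class and 0.129 to 0.219 times in the class with neither. All H2-Ea-expressing libraries were above all 24 others. The Cp-high range held that of the class with neither, and the share of other gene pairs that separate classes was not computed. The main transcripts of the pair are 76.3% identical, and 26.8% of the 50-base stretches of H2-DMb2 occur in H2-DMb1. Reads from such stretches have no unique position, and alleles that differ between strains can shift reads from one gene to the other, so the ratio is uncertain as a measure of transcript.

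**Figure D3:**
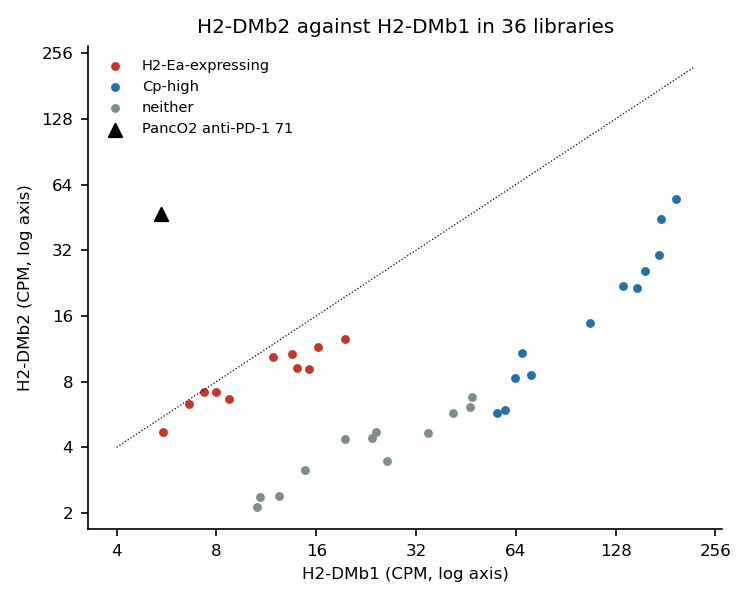
H2-DMb1 in CPM on the horizontal log axis is plotted against H2-DMb2 in CPM on the vertical log axis for 36 libraries, with colour for expression class and a dotted line where both are equal. The H2-Ea-expressing libraries lie nearest to the line and the triangle, library 71 (PancO2 anti-PD-1), far above it, with 46.9 CPM of H2-DMb2 and 5.45 CPM of H2-DMb1.

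In that library, other transcripts of antigen-presenting cells stood out as well. Cd79a, a part of the B cell receptor complex, was at 14.3 CPM, and Pax5, a B cell transcription factor, at 19.03 CPM, while Ms4a1, a B cell surface protein gene, was at 2.79 CPM. Xcr1, a marker of cross-presenting dendritic cells, was at 45.4 CPM, and Flt3, a dendritic growth factor receptor, at 15.1 CPM. Clec9a, which marks the same dendritic cells as Xcr1, was at 2.03 CPM, within the 0.55 to 2.11 CPM of its class. Cxcr2, a neutrophil receptor, was at 89.4 CPM, while S100a8, an abundant neutrophil transcript, was at 2.54 CPM. The part of these in the values of that library was not tested.

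The second question was whether Ciita follows the genes it is known to activate. Over 8 genes and 3 classes, 22 of 24 relations passed for r, at an adjusted permutation p below 0.05, and all 22 were positive, n = 12 each. The share of all genes that would pass with Ciita was not computed, so this count has no background beside it. In the class with neither, r ran from 0.94 to 0.99 for 7 genes and was 0.85 for H2-Oa (permutation p = 0.00018, adjusted p = 0.000254, rho 0.87). H2-DMa was closest, with r = 0.99 and rho 0.99 (permutation p = 1e-05 for both, adjusted p = 3.43e-05 and 4e-05). Ciita there was lowest in the library labelled CT26 IgG 24, at 1.34 CPM, and highest in that labelled MC38 IgG 2, at 29.2 CPM, and r was 0.98 without both.

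In the Cp-high class, r with Ciita ran from 0.83 for H2-Aa to 0.92 for Cd74, with adjusted permutation p between 6e-05 and 0.00145. Without the libraries labelled CT26 IgG 28 and PancO2 anti-PD-1 68, the farthest from the median of Ciita, r for H2-Aa was 0.64 and for H2-DMb2 0.91. H2-Oa had r of −0.03 (permutation p = 0.921, adjusted p = 0.921, rho −0.04). In the H2-Ea-expressing class, H2-Ab1 was closest to Ciita, with r = 0.95 and rho 0.90 (permutation p = 1e-05 and 0.00016, adjusted p = 3.43e-05 and 0.000349), and 0.89 without the libraries labelled MC38 IgG 3 and MC38 anti-PD-1 16. H2-Oa again had none, with r = 0.04 (permutation p = 0.91, adjusted p = 0.921).

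The DM genes were related to Ciita less closely in that class. H2-DMb1 had r = 0.73 and rho 0.61 (permutation p = 0.0098 and 0.0411, adjusted p = 0.0118 and 0.0448). H2-DMa had r = 0.60 and rho 0.61 (permutation p = 0.0347 and 0.0406, adjusted p = 0.0379 and 0.0448). H2-DMb2 had r = 0.64 and rho 0.97 (permutation p = 0.0119 and 2e-05, adjusted p = 0.0136 and 6e-05). Without MC38 IgG 3 and MC38 anti-PD-1 16, r for H2-DMa was 0.23, so that relation rests on these libraries, and it was lost without any 1 of 8 libraries. H2-DMb2 was lost without MC38 anti-PD-1 16 (r = 0.56, adjusted permutation p = 0.0793). Without library 71, r was 0.94, 0.89 and 0.95 for the 3 genes, in the order H2-DMb1, H2-DMa, H2-DMb2. The difference between classes in these relations was not tested.

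**Figure D4:**
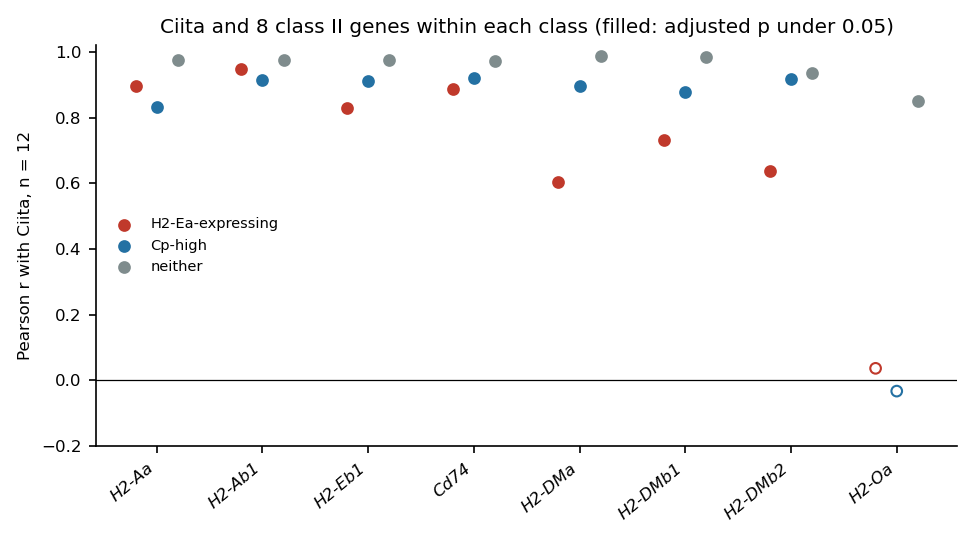
Pearson's r of Ciita with each of 8 genes (horizontal axis) is plotted on the vertical axis for each expression class, with filled symbols where the permutation p adjusted over 24 relations is under 0.05. The values lie at 0.60 or above except for H2-Oa in the H2-Ea-expressing and Cp-high classes, at 0.04 and −0.03.

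H2-Oa passed with Ciita in the class with neither alone among the 3. Its partner gene H2-Ob, the beta chain of the DM inhibitor, was likewise low, at 0.129 to 0.888 CPM in the H2-Ea-expressing class, 3.24 to 14.8 CPM in the Cp-high class and 0.578 to 3.61 CPM in the class with neither. The X and Y box letters shown above for H2-Oa are of the same form as those of H2-Aa.

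What else varied with class II was asked for H2-Ab1 with the mean log2(CPM + 0.5) of 12 gene lists in each class. Of 36 relations, 11 passed for r in the same way, all positive, and 15 had an unadjusted p below 0.05. For rho, 14 passed. The interferon-gamma response list (6 genes, among them Ifng, Irf1, Cxcl9 and Gbp2) passed in all 3 classes. Its r was 0.95 in the H2-Ea-expressing class (permutation p = 1e-05, adjusted p = 9e-05, rho 0.95), 0.87 in the Cp-high class (permutation p = 0.00013, adjusted p = 0.000669, rho 0.83) and 0.96 in the class with neither (permutation p = 1e-05, adjusted p = 9e-05, rho 0.92). Without the libraries farthest from the median of H2-Ab1, r was 0.90, 0.75 and 0.95. Cxcl9, a chemokine that draws T cells, ran from 2.46 to 187 CPM in the class with neither, from 39.6 to 205 CPM in the H2-Ea-expressing class and from 73.9 to 446 CPM in the Cp-high class. Ifng itself was at most 4.07 CPM.

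The T cell list (Cd3e, Cd3d, Cd4, Cd8a and Cd2) was related to H2-Ab1 in 2 classes. Its r was 0.88 in the H2-Ea-expressing class (permutation p = 0.00027, adjusted p = 0.00121, rho 0.89) and 0.93 in the class with neither (permutation p = 1e-05, adjusted p = 9e-05, rho 0.94), with 0.89 and 0.98 without the farthest libraries. In the Cp-high class it was 0.66 (permutation p = 0.019, adjusted p = 0.057, rho 0.61), near the threshold. It passed without PancO2 anti-PD-1 70 (r = 0.77, adjusted permutation p = 0.0176) and without CT26 anti-CTLA4 36 (r = 0.75). Cd8a ran from 0.851 to 36.3 CPM in the class with neither.

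The conventional dendritic cell list (7 genes) passed in the class with neither, with r = 0.83 (permutation p = 0.00126, adjusted p = 0.00504, rho 0.87). Its r was 0.61 in the H2-Ea-expressing class (adjusted permutation p = 0.0814), although its rho of 0.71 passed (adjusted permutation p = 0.0374). There, r was 0.73 without library 71 (adjusted permutation p = 0.0338) and 0.70 without PancO2 IgG 54 (adjusted permutation p = 0.0334). In the Cp-high class r was 0.24 (adjusted permutation p = 0.648). The macrophage list had r of −0.23, 0.60 and −0.07 in the H2-Ea-expressing class, the Cp-high class and the class with neither, and none passed (adjusted permutation p = 0.648, 0.099 and 0.855). Without PancO2 anti-PD-1 70, r in the Cp-high class was 0.79 (adjusted permutation p = 0.0127). B cell markers did not pass in any class with all libraries, and in the class with neither r was 0.44, or 0.71 without CT26 IgG 24 (adjusted permutation p = 0.0461). Their summed level was at most 6.35 CPM outside library 71.

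The class I presentation list, 8 of whose 9 genes were in the table, passed in the Cp-high class with r = 0.93 (permutation p = 2e-05, adjusted p = 0.000144) and in the class with neither with r = 0.92 (permutation p = 3e-05, adjusted p = 0.00018). In the H2-Ea-expressing class r was 0.36 (adjusted permutation p = 0.43) with library 71 and 0.90 without it (adjusted permutation p = 0.000855), and rho with it was 0.69 (adjusted permutation p = 0.0442). The class II accessory list (H2-Ob, H2-Eb2, Ctss, Ctsl, Lgmn, Ifi30, March1 and Cd83) passed in the Cp-high class with r = 0.94 and in the class with neither with r = 0.77 (adjusted permutation p = 9e-05 and 0.011). Its r was 0.50 in the H2-Ea-expressing class (adjusted permutation p = 0.204). Ctsl, a lysosomal protease, had the reverse order of the chain genes between classes, at 174 to 359 CPM in the Cp-high class and 1601 to 2170.1 CPM in the H2-Ea-expressing class, without overlap.

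The factors that hold the X and Y boxes (Rfx5, Rfxank, Rfxap, Nfya, Nfyb, Nfyc and Creb1) did not pass in any class. Their r with H2-Ab1 was −0.13, 0.07 and 0.55 in the H2-Ea-expressing class, the Cp-high class and the class with neither (adjusted permutation p = 0.793, 0.855 and 0.153). Their summed level ran from 271 to 353 CPM over all 36 libraries, with Nfya and Creb1 the highest by median in each class. Single factors differed more. Rfxank was at 5.94 to 9.34 CPM in the H2-Ea-expressing class and 11.4 to 17.7 CPM in the class with neither. Rfxap was at 20.5 to 37.4 CPM in the H2-Ea-expressing class and 13.1 to 19.2 CPM in the Cp-high class. These ranges did not overlap, as for 26.9% and 31.7% of all genes between the same classes. The neutrophil list passed in the H2-Ea-expressing class alone among the 3, with r = 0.77 (permutation p = 0.00511, adjusted p = 0.0167), and 0.71 without PancO2 IgG 54 (adjusted permutation p = 0.0526). The epithelial and skin lists did not pass in any class. The fibroblast list passed in none for r, but in the Cp-high class its rho was −0.71 (permutation p = 0.0119, adjusted p = 0.0357), with r of −0.59 (adjusted permutation p = 0.103).

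**Figure D5:**
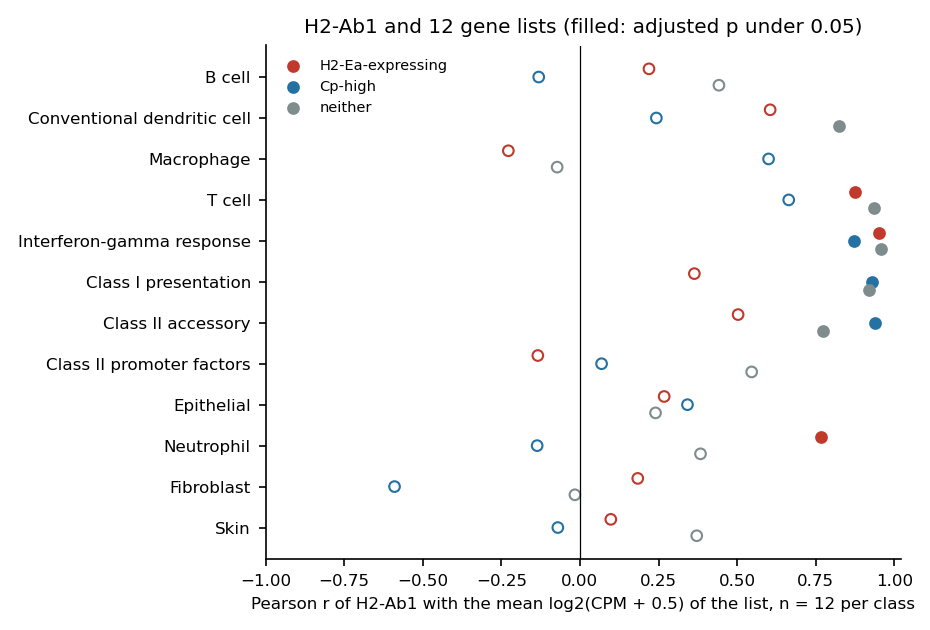
Pearson's r of H2-Ab1 with the mean log2(CPM + 0.5) of each of 12 gene lists (vertical axis) is given on the horizontal axis for each expression class (n = 12), with filled symbols where the permutation p adjusted over 36 relations is under 0.05. The interferon-gamma response list is filled in all 3 classes, at 0.87 to 0.96, and the promoter factors in none.

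The genes most like H2-Ab1 were ranked in each class. In the H2-Ea-expressing class the first 5 outside the members were Iigp1, ENSMUSG00000028269, Samhd1, Tgtp2 and Gbp2b, with r of 0.94 to 0.97. Without library 71 they were Gbp2b, Irf1, Gbp4, Iigp1 and Igtp, with r of 0.96 to 0.99. In the Cp-high class they included AW112010, Itgal, Fgl2 and Clec12a, with r of 0.96 to 0.98, of which Itgal encodes a leukocyte integrin chain. In the class with neither they were Plbd1, Tapbpl, Psme1, Klrb1b and Tapbp, with r of 0.96 to 0.98, of which Tapbp encodes tapasin and Psme1 a proteasome activator subunit. An r above 0.8 with H2-Ab1 was found for 7 of 7 members in the Cp-high class, against 2.92% of all genes, and for 6 of 6 in the class with neither, against 1.9%. In the H2-Ea-expressing class it was found for 5 of 8, against 0.423%. Without library 71 it was found for 8 of 8, against 1% of all genes.

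Depth was related to some of the genes. With the log2 library total, r was −0.60 for H2-DMb2 in the H2-Ea-expressing class, or −0.14 without library 71, and 0.46 for Ciita and −0.40 for H2-Oa in the Cp-high class. Over the 12 H2-Ea-expressing libraries, r of H2-Ea-ps with the log2 library total was −0.13, and −0.33 without library 71. For H2-Ab1 it was −0.29 in that class, 0.24 in the Cp-high class and 0.06 in the class with neither.

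Between the groups as labelled, no class II gene was called. Since the labels and the expression classes disagree, these counts may not describe the lines or the antibodies. The study profiled the 3 models after each antibody or its control. In 3 comparisons between lines under IgG and 6 of an antibody with IgG within a line, the quasi-likelihood test of edgeR, adjusted by Benjamini-Hochberg, called 0 of the 10 genes and 0% of all genes. Genes at an unadjusted p under 0.05 numbered 25 to 912 per comparison, and the DESeq2 Wald test called 0 to 2 genes, none of them a member. The member nearest to a call was H2-DMb2 for PancO2 anti-PD-1 against IgG, with a log2 fold change of 1.87 (SE 0.73, edgeR adjusted p = 0.806). It was the only member at an unadjusted p under 0.05 in these 9 comparisons, and the group holds library 71.

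Over all 36 libraries with a term for the 3 classes, 0 of 16323 genes (0%) were called for either antibody. Genes at an unadjusted p under 0.05 numbered 741 with anti-PD-1 and 331 with anti-CTLA4. For anti-PD-1 against IgG, with the median over all genes at 0.0037, 9 of the 10 genes had a negative log2 fold change, the lowest −1.01 for H2-Eb1 (SE 0.45, edgeR adjusted p = 0.928), and H2-Ea-ps was at −0.68 (SE 0.27, edgeR adjusted p = 0.928). In the separate fits within each labelled line, without a class term, 8 of 10 genes were higher under anti-PD-1 in MC38, 8 in CT26 and 9 in PancO2. Those fits differ from the one over 36 libraries in samples as well as in the class term. The part of each in the direction was not tested. For anti-CTLA4 with the class term, 7 of 10 were negative, and H2-Ea-ps was at −0.55 (SE 0.27, edgeR adjusted p = 0.9998). These genes move together within a class, so such counts of direction are not independent. Among the H2-Ea-expressing libraries, H2-Ea-ps ran from 34.7 to 134 CPM in the 4 labelled IgG, from 45.5 to 83.9 CPM in the 4 labelled anti-CTLA4 and from 32.8 to 97.95 CPM in the 4 labelled anti-PD-1, and the 3 ranges overlapped.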

How the data were processed

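Poly-A RNA from 36 tumours was sequenced. The labels name the TruSeq V2 kit, while the methods of the study name a stranded KAPA kit in the section on unique mutations, and whether that section covers these libraries is not stated. The authors mapped reads to GRCm38/mm10 with TopHat and Bowtie2 and counted them per Ensembl gene with HTSeq. The deposited values are these raw counts, neither normalized nor pooled. The submitters' processing notes also name FastQC 0.11.5 and HTSeq 07.2. Whether counting used strand, and the Ensembl release, are not given in the sources used here. HTSeq sets aside reads without a unique position. The 5 summary rows, 44.8% to 86.5% of the reads listed, were left out of totals. Symbols matched 32608 of 37417 genes.

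CPM was computed over the gene rows, and levels between genes were divided by the length of the main GENCODE vM21 transcript. Relations used log2(CPM + 0.5), Pearson's r, Spearman's rho and 100000 permutations (numpy 2.4.6), two-sided, with Benjamini-Hochberg adjustment over 9, 24 or 36 relations. Labelled groups were tested on counts with edgeR 4.0.16 (filterByExpr, TMM, glmQLFTest), as the test that fits counts, with limma-voom 3.58.1, the package of the study's methods, and DESeq2 1.42.0 as alternatives. SE was taken as the fold change over the square root of F. The procedures were tested on simulated data. Members, lists, classes and tests were chosen with earlier results of these data known. Named genes were the 10 members, list genes and the 10 or 5 genes most like H2-Ea-ps or H2-Ab1 at a mean of at least 5 CPM. Other list genes, such as Cxcr2 and Ctsl, were named after their values were seen. Nothing says that replicates share a culture or litter, and p-values measure the spread between these tumours. Each tumour is 1 mouse by its label. Values of some single genes of the lists and rankings are not reported here.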

Additional observations from a re-analysis of the deposited data

Results flagged for a closer look

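In each of the 9 labelled groups of 4 libraries, single libraries far from the other 3 were looked for in the 10 genes by Dixon's test, 90 sets in all. There were 31. Chance alone would give 4.5 in 90 independent sets, but these genes move together and the sets are not independent. Of the 31, 6 concern H2-Ea-ps in groups with 1 library of the class that this gene defines, where the rule for the class fixes the result, so they support nothing. They were 83.9 CPM in MC38 anti-CTLA4 14, 32.8 CPM in MC38 anti-PD-1 16, 103 CPM in CT26 IgG 27, 50.7 CPM in CT26 anti-PD-1 42, 134 CPM in PancO2 IgG 54 and 57.9 CPM in PancO2 anti-CTLA4 62, against at most 0.0845 CPM in the other 3 libraries of each group.

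The other 25 were high values in Cp-high libraries. In the library labelled MC38 anti-CTLA4 8, H2-Aa was at 1577 CPM, H2-Ab1 at 1036 CPM, H2-Eb1 at 1250 CPM (1249.6), Cd74 at 3262 CPM, Ciita at 114.5 CPM, H2-DMa at 172 CPM and H2-DMb2 at 44.6 CPM. In that labelled CT26 anti-CTLA4 36, H2-Aa was at 1316 CPM, H2-Ab1 at 828 CPM, H2-Eb1 at 1053 CPM, Cd74 at 2671 CPM, Ciita at 86.02 CPM, H2-DMa at 131 CPM and H2-DMb1 at 134.99 CPM. In that labelled CT26 anti-PD-1 46, H2-Aa was at 926 CPM, H2-Ab1 at 564 CPM, H2-Eb1 at 716 CPM, Cd74 at 1785 CPM, Ciita at 55.8 CPM, H2-DMa at 107.8 CPM, H2-DMb1 at 107.01 CPM and H2-Oa at 1.23 CPM. Ciita was at 57.1 CPM in PancO2 IgG 48 and at 110.9 CPM in PancO2 anti-PD-1 70, and H2-DMb2 was at 25.7 CPM in MC38 IgG 7.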

How the results depend on the processing

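No paired analysis was possible because no mouse number occurs in more than 1 library. The DESeq2 Wald test moved 4 counts between labelled groups from 0, to 1 for PancO2 IgG against MC38 IgG, 1 for CT26 IgG against MC38 IgG, 2 for PancO2 anti-PD-1 and 2 for PancO2 anti-CTLA4 against IgG. Size factors, both filters, limma-voom, the class term and leaving out each library called 0. Among relations of H2-Ea-ps, leaving out 1 library moved r with H2-DMb2 between 0.10 and 0.91, past the threshold only without PancO2 anti-PD-1 71. The pseudocounts of 0.1 and 1, and TMM effective library sizes, left the count of relations past the threshold at 7 of 9. For Ciita, 21 of 24 passed with TMM sizes, since H2-DMa in the H2-Ea-expressing class gave r = 0.56 (permutation, adjusted p = 0.0591), and 20 to 22 when 1 library was left out. Those lost were H2-DMa, without any of 8 libraries, and H2-DMb2 without MC38 anti-PD-1 16, both in that class. For H2-Ab1 and the lists, 13 of 36 passed with TMM sizes, adding the macrophage and T cell lists in the Cp-high class, and 11 to 14 when 1 library was left out. The neutrophil list was lost in the H2-Ea-expressing class without PancO2 IgG 54 (r = 0.71, permutation, adjusted p = 0.0526). No relation past the threshold changed sign and no class median moved by over 1 SD under these alternatives. Leaving out PancO2 anti-PD-1 71 from levels and from the ranking of genes was chosen after its values were seen. H2-Oa, at no more than 6.38 CPM, is limited by counting.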
